A study of Mus musculus with 8 samples.

Results

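The RAS-MAPK feedback genes examined here were the 10 rows of the count files whose gene name was that of a MAP kinase phosphatase (Dusp4, Dusp5, Dusp6), a Sprouty gene (Spry1, Spry2, Spry4), a Spred gene (Spred1, Spred2) or a PEA3 transcription factor gene (Etv4, Etv5), out of 39179 genes in the files. All 10 members matched 1 row each, and all 10 passed the filter on low counts that left 16192 genes for testing. The RNA came from cultured mouse pancreatic ductal adenocarcinoma cells, which the labels call iKPC, in 4 lines that each gave 1 library with WT-USP21 and 1 with ED-USP21, 8 libraries in all. The strain label is FVB/C57Bl6 for lines 1 and 2, and C57BL/6 for the other two. All 8 libraries share a genotype with a tetracycline-controlled transgene, ROSA_rtTA and p48-Cre, so the libraries with WT-USP21 and those with ED-USP21 alike carry that transgene, the rtTA activator it needs and a Cre recombinase driven from a pancreatic promoter. USP21 is a deubiquitinase, and the labels do not spell out ED. Cells without an introduced USP21 were not analysed here, and the labels do not say whether doxycycline was in the medium.

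RAS proteins switch on the kinases RAF, MEK and ERK in turn, and ERK then enters the nucleus and raises transcription of genes that restrain the same cascade. The dual specificity phosphatases remove the activating phosphates from ERK, Sprouty and Spred proteins act further up at the level of growth factor receptors, RAS and RAF, and the PEA3 factors carry the transcriptional output. In pancreatic cancer, where this cascade is active in most tumours, the transcripts of these genes are widely read as a measure of ERK activity.

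Gene counts came to 72828184 to 107551210 per library. Usp21 stood at 147, 944, 539 and 941 CPM (counts scaled to a common library size after TMM normalisation) with WT-USP21 in lines 1 to 4. With ED-USP21 it stood at 1658, 3133, 1662 and 2721 CPM. The counted Usp21 level thus differed between the constructs, and line 1 had the least with WT-USP21. Reads of the cells' own gene and of the construct cannot be told apart in these counts. Markers of pancreatic ductal epithelium were abundant, with summed levels of 7672 to 13316 CPM with WT-USP21 and 8127 to 11182 CPM with ED-USP21, although Epcam was at 0.139 to 5.35 CPM with WT-USP21 and 0.0645 to 3.40 CPM with ED-USP21. The fibroblast markers Dcn and Lum, the endothelial marker Emcn and the acinar genes Ptf1a and Amy2a5 were at 0 reads in every library. Other markers on these lists were present, such as the fibroblast marker Pdgfra at 3.35 to 5.82 CPM. Acinar genes summed to 2.66 to 10.7 CPM with WT-USP21 and 3.07 to 12.3 CPM with ED-USP21, mostly Cela1. Immune markers summed to 6.12 to 13.1 CPM with WT-USP21 and 5.11 to 16.2 CPM with ED-USP21, mostly Cd68. Libraries of lines 2 and 4 lay nearest to each other. The median chi-square per gene was 3.54 between their WT-USP21 and 2.80 between their ED-USP21 libraries, against 6.65 between the constructs within line 2. Yet the strain label is FVB/C57Bl6 for line 2 and C57BL/6 for line 4. Lines 1 and 2 share a label, with values of 41.9 between their WT-USP21 and 36.8 between their ED-USP21 libraries. Beyond strain, the labels do not tell whether lines 2 and 4 have separate origins. In the comparisons below a positive log2 difference means higher with WT-USP21, adjusted p-values are Benjamini-Hochberg values over all genes tested, and a gene was called at an adjusted p under 0.05.

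RefSeq promoter windows (GRCm38.p6, 250 bases before to 50 after the start site) were at hand for 7 of the 10 members, in 8 windows because Etv5 has a pair of start sites. They were searched on both strands for GGAAGT, a core of sites bound by ETS factors, for the AP-1 site TGACTCA, for the cyclic AMP response element TGACGTCA and for the CArG box bound by serum response factor. ETS and serum response factors are nuclear endpoints of ERK signalling. The Dusp5 window is shown because it held 2 CArG boxes, which begin 82 and 72 bases before the start site and abut each other, plus 1 match to GGAAGT at 193 bases before it. Among all 32851 promoter windows of this length, 1.63% held a CArG box and 23.8% held GGAAGT. The Spred2 window held 1 match to GGAAGT, 33 bases before the start site, and the windows of Dusp6, Spry1, Spry2 and Spred1 held no match to any of the 4 motifs. The second Etv5 window held 2 matches to GGAAGT, 1 of them past the start site, and the first none. The ends of the second Etv5 window and of the Spred1 window were found in no GENCODE M21 transcript of the gene, unlike those of the other windows. TGACTCA, found in 5.2% of all windows, and TGACGTCA, found in 1.79%, were in none of the 8. The windows of Dusp5 (chr19:53528895-53529194, plus strand), Spred2 (chr11:19924192-19924491, plus strand) and, as an abundant member without a match, Dusp6 (chr10:99262981-99263280, plus strand) follow, 5′ to 3′, with matches in capitals. No motif match overlapped another in these 3 windows.
Dusp5: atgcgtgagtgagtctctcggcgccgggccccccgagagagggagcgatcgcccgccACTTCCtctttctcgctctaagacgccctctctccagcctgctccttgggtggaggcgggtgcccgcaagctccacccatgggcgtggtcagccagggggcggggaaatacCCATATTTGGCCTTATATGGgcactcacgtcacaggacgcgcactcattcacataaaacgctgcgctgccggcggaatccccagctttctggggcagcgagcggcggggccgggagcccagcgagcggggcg
Spred2: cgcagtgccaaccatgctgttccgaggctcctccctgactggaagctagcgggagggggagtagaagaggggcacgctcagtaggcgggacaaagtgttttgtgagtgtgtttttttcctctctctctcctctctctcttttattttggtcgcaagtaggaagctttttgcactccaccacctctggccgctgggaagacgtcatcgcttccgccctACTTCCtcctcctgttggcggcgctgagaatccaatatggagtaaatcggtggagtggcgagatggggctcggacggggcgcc
Dusp6: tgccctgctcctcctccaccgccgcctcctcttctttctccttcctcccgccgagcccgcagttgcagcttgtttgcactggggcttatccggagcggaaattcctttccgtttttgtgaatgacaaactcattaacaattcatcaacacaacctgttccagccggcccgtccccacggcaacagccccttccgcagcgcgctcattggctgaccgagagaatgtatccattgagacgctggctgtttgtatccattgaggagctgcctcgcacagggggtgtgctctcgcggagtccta
A match is a string of letters and was not tested for binding.

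Per kilobase of exon in the GENCODE M21 annotation, the mean level over the 8 libraries was highest for Dusp6, at 167 CPM per kilobase, followed by Dusp5 at 75.7, Dusp4 at 35.5 and Spry2 at 30.5. It was lowest for Spry4, at 6.83, and Spred2, at 9.10 CPM per kilobase. The remaining members lay between 13.03 (Etv5) and 24.1 (Spred1) CPM per kilobase. The annotation is of a later build than the one used for counting, so these levels per length are approximate.

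The first question was whether the members differ with the form of USP21. With WT-USP21, Dusp4 stood higher in all 4 lines, and so did Etv5, by less in each. The other 8 members were higher in some lines and lower in others. In bulk RNA, fewer cells that express a gene and less of its RNA per cell cannot be told apart. Without the line in the model edgeR called 0 of the 10 members and 0% of all genes tested, with 2.42% of all genes at an unadjusted p under 0.05. With the line as a block it called 0 of the 10, against 0.0247% of all genes, and 2 members (Dusp4 and Etv5) were at an unadjusted p under 0.05, against 8.28% of all genes. DESeq2 called 1 member, Dusp4, higher with WT-USP21 in both models. Without the block it called 0.371% of all genes (0.309% of all genes as higher), and with the block 2.51% (1.95% as higher). Within lines the median of the fitted log2 differences of the members was 0.18, against -0.0044 over all genes tested. Of the 10 fitted differences 9 were positive, but the share of all genes with a positive one is not given here. Members do not vary independently (r up to 0.93 between them), and in line 3 their median difference was -0.01.

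**Figure D1:**
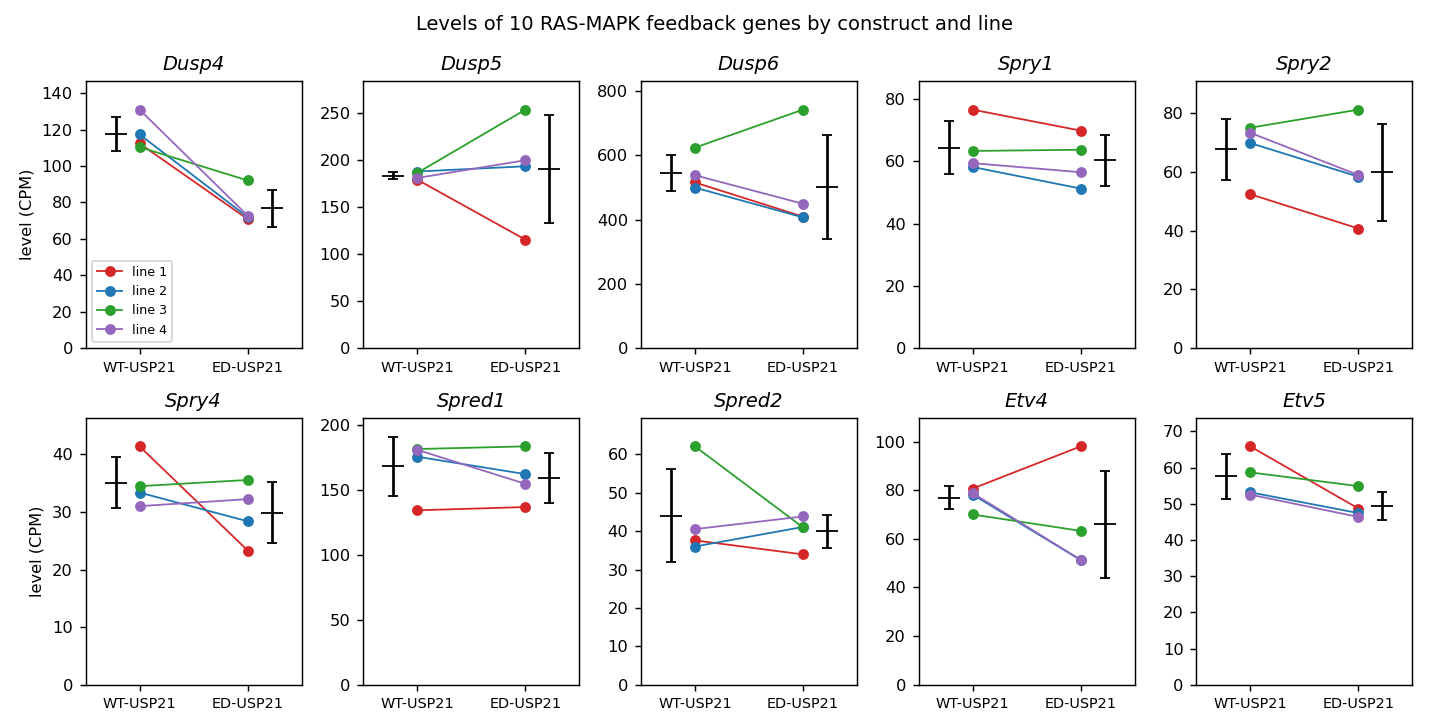
Level of each member in CPM (linear axes from 0) in WT-USP21 and ED-USP21 libraries, with 1 colour per cell line, a line joining both libraries of a cell line, and black bars for mean ± SD over 4 lines. Dusp4 is the member whose WT-USP21 libraries, at 110 to 131 CPM, all lie above its ED-USP21 libraries, at 70.8 to 92.1 CPM.

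Dusp4 (ENSMUSG00000031530) encodes a nuclear phosphatase that acts on ERK and other MAP kinases. Its level was 112, 117, 110 and 131 CPM with WT-USP21 in lines 1 to 4, against 70.8, 71.9, 92.1 and 72.7 CPM with ED-USP21. All WT-USP21 libraries lay above all ED-USP21 libraries, as was so for 1.07% of all genes tested. The ED-USP21 library of line 3 was the high one of its group and the WT-USP21 library of line 4 the high one of its own. The WT-USP21 level over the ED-USP21 level gave folds of 1.59, 1.63, 1.20 and 1.80 in lines 1 to 4. The fitted log2 difference within lines was 0.62 (SE 0.10, 95% interval 0.37 to 0.87), which passed in DESeq2 (adjusted p = 4.22e-05, and 0.000603 without the block) but not in edgeR (adjusted p = 0.193, and 0.346 without the block). Without line 1 it was 0.61 (SE 0.11) and passed in edgeR as well (adjusted p = 0.0377), where 1 of 10 members was called against 4.57% of all genes. Without line 2, 3 or 4 it did not pass in edgeR (adjusted p = 0.913, 0.395 and 0.798). The construct accounted for 85.2% of the variance of its log2 CPM over the 8 libraries, against a median of 4.02% over all genes tested.

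Summed levels of some marker lists, or some genes on them, differed between constructs too, in part with line 1 running the other way. The summed level of the 5 endothelial markers was 2.35 to 7.42 CPM with WT-USP21 and 0.549 to 0.839 CPM with ED-USP21. Kdr stood at 0.0435, 5.11, 7.07 and 7.03 CPM with WT-USP21 in lines 1 to 4, against 0.0193, 0.378, 0.538 and 0.373 CPM with ED-USP21. Cdh5 stood at 2.23 CPM with WT-USP21 and 0.385 CPM with ED-USP21 in line 1, and at or below 0.298 CPM in the other lines. Pecam1 averaged 0.0862 ± 0.0459 CPM with WT-USP21 and 0.0948 ± 0.0269 CPM with ED-USP21 (SD, n = 4 each), and Emcn was at 0. The summed level of 6 fibroblast markers was 6.85 to 14.98 CPM with WT-USP21 and 4.78 to 7.84 CPM with ED-USP21, with Dcn and Lum at 0. The groups overlapped, and in line 1 the sum was the lower one with WT-USP21 (7.26 against 7.84 CPM). Within lines edgeR and DESeq2 called 0 of these markers. In line 4 Col1a2 alone stood at 5.33 CPM with WT-USP21, against 0 with ED-USP21. Of 8 mesenchymal genes edgeR called 0 over 4 lines, with or without the block, while in DESeq2 within lines 3 passed, all higher with WT-USP21. Without line 1 edgeR called 4 higher and 0 lower, against 4.57% of all genes, and in line 1 their summed level was the lower one with WT-USP21 (3394 against 4147 CPM). Their part in the Dusp4 difference was not tested.

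Dusp5 encodes a phosphatase that is nuclear and specific for ERK. Its level was 179, 188, 187 and 181 CPM with WT-USP21 in lines 1 to 4, and 115, 194, 254 and 200 CPM with ED-USP21. The WT-USP21 libraries lay between 179 and 188 CPM, while the ED-USP21 library of line 1 was the lowest and that of line 3 the highest of all 8. The log2 difference was 0.64 in line 1, and -0.04, -0.44 and -0.14 in lines 2, 3 and 4, which left a fitted difference near 0 (95% interval -0.41 to 0.41).

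Dusp6, a cytoplasmic phosphatase specific for ERK, stood at 516, 500, 624 and 538 CPM with WT-USP21 in lines 1 to 4, and at 409, 407, 742 and 449 CPM with ED-USP21. Both libraries of line 3 lay above all libraries of the other lines, and line 3 was the line in which the ED-USP21 library was the higher one. The fitted log2 difference was 0.16 (SE 0.11, 95% interval -0.11 to 0.43, edgeR adjusted p = 0.782).

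Among the Sprouty genes, whose products bind signalling adaptors and RAF, no difference between constructs passed. Spry2 stood at 52.4, 69.8, 75.0 and 73.3 CPM with WT-USP21 in lines 1 to 4, and at 40.7, 58.3, 81.1 and 58.9 CPM with ED-USP21. Like Dusp6 it was higher with WT-USP21 in lines 1, 2 and 4 and lower in line 3, and its fitted log2 difference was 0.21 (95% interval -0.02 to 0.43, edgeR adjusted p = 0.632). Spry1 ranged from 58.2 to 76.6 CPM with WT-USP21 and from 51.3 to 69.9 CPM with ED-USP21, and in each line the constructs were at most 1.14-fold apart. Spry4 stood at 41.4, 33.4, 34.5 and 31.0 CPM with WT-USP21 in lines 1 to 4, and at 23.3, 28.4, 35.6 and 32.2 CPM with ED-USP21, so that line 1 held both its highest and its lowest library. The fold was 1.77 in line 1 and 1.18 in line 2, and in lines 3 and 4 it was 0.970 and 0.962. In all, 3 of the 10 members (Dusp6, Spry1 and Spry2) were higher with WT-USP21 in lines 1, 2 and 4 and lower in line 3, a pattern shown by 6.82% of all genes tested. This pattern was picked after the members' values were seen, so the share is a description only. For Spry1 the log2 difference in line 3 was only -0.0087.

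The Spred proteins bring neurofibromin to the membrane, where it inactivates RAS. Spred1 stood at 134 to 181 CPM with WT-USP21 and at 137 to 184 CPM with ED-USP21, with a fitted log2 difference of 0.07 (95% interval -0.09 to 0.23, edgeR adjusted p = 0.845). Spred2 was at 62.1 CPM with WT-USP21 in line 3 and at 36.0 to 40.6 CPM in the other WT-USP21 libraries, against 34.0 to 43.9 CPM with ED-USP21. Its log2 difference was 0.15, -0.19, 0.60 and -0.11 in lines 1 to 4. The share of counts in no annotated gene moved in the same order, at 13.2%, 16.4%, 17.8% and 17.5% with WT-USP21 in lines 1 to 4, against 11.4%, 20.6%, 13.2% and 19.9% with ED-USP21, and its part in the Spred2 values was not tested.

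The PEA3 factor genes encode ETS transcription factors whose own transcripts follow ERK activity. Etv5 stood at 65.9, 53.2, 58.7 and 52.5 CPM with WT-USP21 in lines 1 to 4, and at 48.7, 47.4, 54.9 and 46.4 CPM with ED-USP21. The WT-USP21 library was the higher one in each line, but the groups overlapped. Of the 10 members 2 were higher in 4 of 4 lines, against 9.02% of all genes tested. The fitted log2 difference of Etv5 was 0.22 (SE 0.07, 95% interval 0.04 to 0.40), with an unadjusted p of 0.0241 and an adjusted p of 0.485 in edgeR. Etv4 stood at 80.6, 78.2, 70.0 and 78.8 CPM with WT-USP21 in lines 1 to 4, and at 98.0, 51.3, 63.3 and 51.4 CPM with ED-USP21. Its WT-USP21 library was the lower one in line 1 and the higher one in lines 2, 3 and 4, and 3 of the 10 members (Dusp4, Etv4 and Etv5) were higher in all of lines 2, 3 and 4, against 19.8% of all genes. The fitted log2 difference was 0.27 (SE 0.16, edgeR adjusted p = 0.739) over 4 lines and 0.46 (SE 0.10, adjusted p = 0.0613) without line 1.

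**Figure D2:**
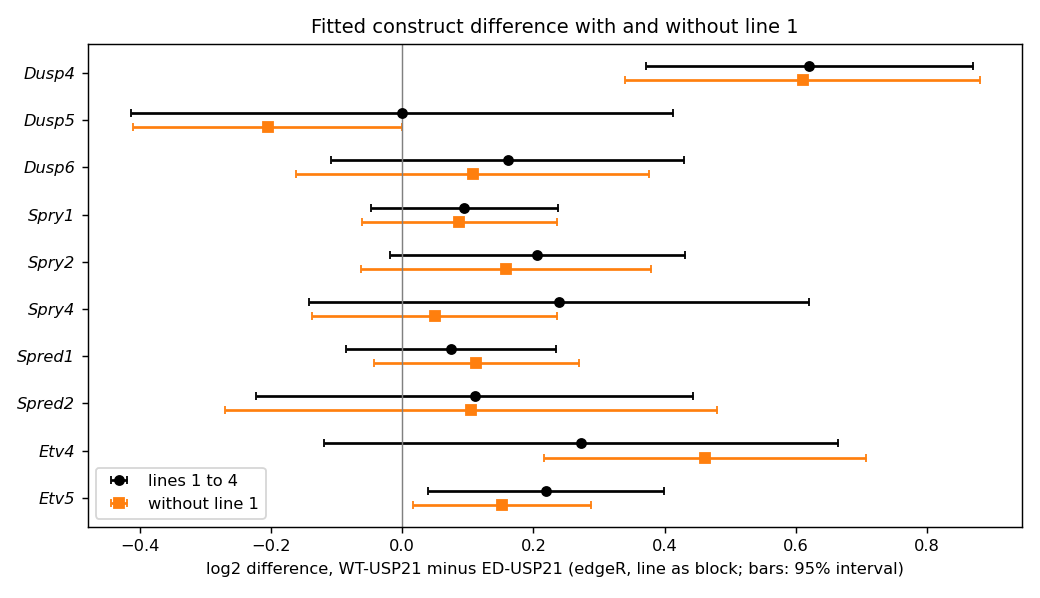
Fitted log2 difference, WT-USP21 minus ED-USP21, with its 95% interval, from edgeR with the line as a block, over 4 lines (black circles) and without line 1 (orange squares). Dusp4 is at 0.62 and 0.61, whereas Dusp5 is near 0 with line 1 and at -0.21 without it, and Etv4 is at 0.27 and 0.46.

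Within single lines, where 1 library stood for each construct and no test was possible, the members were counted at 1.5-fold or more. In line 1 3 of 10 members (Dusp4, Dusp5 and Spry4) were at least 1.5-fold higher with WT-USP21, against 12.4% of all genes. In line 2 there were 2 (Dusp4 and Etv4, against 7.39%), in line 3 there was 1 (Spred2, against 10.3%) and in line 4 there were 2 (Dusp4 and Etv4, against 10.4%). No member was 1.5-fold lower with WT-USP21 in lines 1 to 4, against 8.59%, 10.4%, 5.95% and 10.4% of all genes. The median log2 difference of the members was 0.35, 0.21, -0.01 and 0.20 in lines 1 to 4, against medians of 0.01, 0.0042, -0.02 and 0.0045 over all genes tested.

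**Figure D3:**
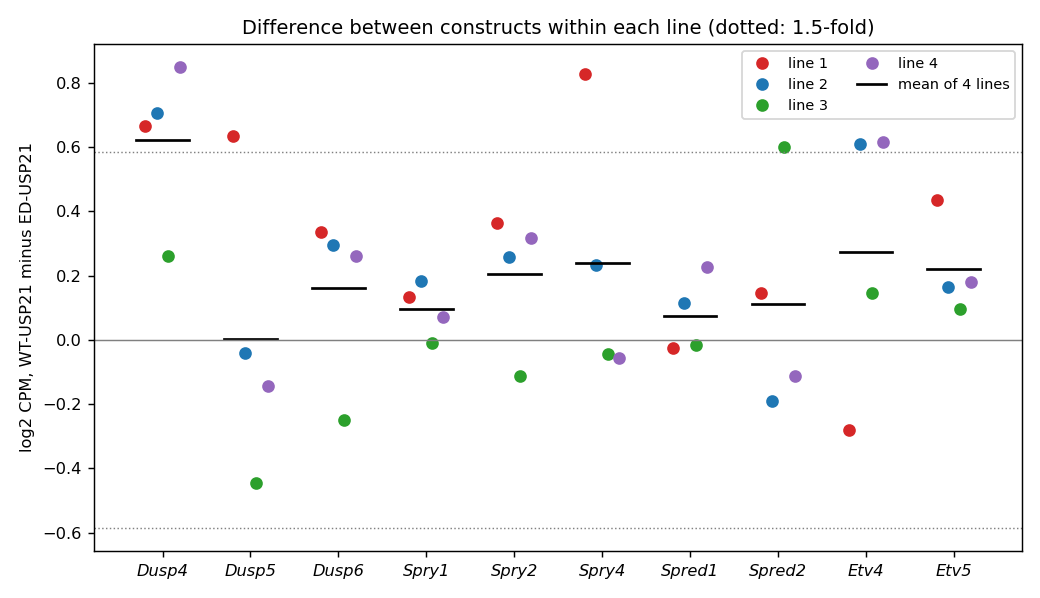
Difference of log2 CPM, WT-USP21 minus ED-USP21, within each of the 4 lines (coloured points) and their mean (black bar) for the 10 members, with dotted lines at 1.5-fold. Line 1 lies apart for Dusp5 (0.64), Spry4 (0.83) and Etv4 (-0.28), and line 3 is the lowest of the 4 for Dusp4, Dusp5, Dusp6, Spry1, Spry2 and Etv5.

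Whether the construct difference was another one in line 1 than in lines 2 to 4 was tested in edgeR with the line as a block, a test chosen after the values within lines had been seen. It called 2 of the 10 members, Dusp5 and Spry4, against 6.27% of all genes tested. The construct difference in line 1 minus that in lines 2 to 4 was 0.85 for Dusp5 (SE 0.17, adjusted p = 0.0427) and 0.78 for Spry4 (SE 0.16, adjusted p = 0.04). For Etv4 it was -0.74 (SE 0.21), which passed in DESeq2 (adjusted p = 0.0136, with 10% of all genes called) but not in edgeR (adjusted p = 0.0984), except with no filter on low counts (adjusted p = 0.0183). Line 1 is a single line with 1 library per construct, and its spread was assumed to be that of the other lines. Between background labels the difference of the construct effect, FVB/C57Bl6 minus C57BL/6, passed for 0 members in edgeR and DESeq2, against 0% and 0.0432% of all genes. Its largest members were Dusp5 (log2 0.59, SE 0.26) and Spry4 (0.58, SE 0.22), with an unadjusted p of 0.0698 and 0.0462 in edgeR, and 2.32% of all genes were at an unadjusted p under 0.05.

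The next question was whether the members differ between lines. The line accounted for a median of 55.5% of the variance of the members' log2 CPM, against 72.3% over all genes tested, and the construct for a median of 9.74% against 4.02%. In an F test over the 4 lines, with the construct as covariate, edgeR called 2 of the 10 members, Spry1 (adjusted p = 0.0411) and Spry2 (adjusted p = 0.0331), against 24.8% of all genes. DESeq2 called those and Dusp6 and Spred1, 4 of 10, against 40.4% of all genes. Without line 1 edgeR called 0 of the 10 and 65 genes in all, and without line 2, 3 or 4 it called 0, 1 and 1 of the 10, and 2483, 2916 and 3261 genes in all. Spry1 was lost whichever line was left out (adjusted p = 0.0506 to 0.338), and Spry2 was lost without line 1 (0.348) or line 2 (0.0594). The spread in this test is that of the construct difference between lines, since a line has 1 library per construct.

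**Figure D4:**
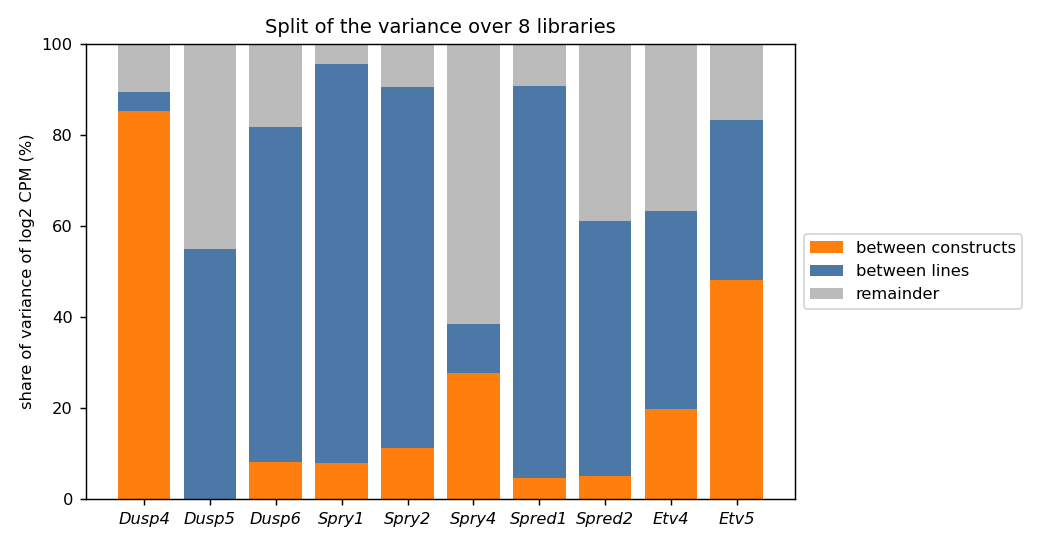
Share of the variance of log2 CPM over 8 libraries that lies between constructs (orange), between lines (blue) and in the remainder (grey), for each member. The construct holds 85.2% for Dusp4 and 48.01% for Etv5, while the line holds 87.8% for Spry1, 86.2% for Spred1 and 79.3% for Spry2.

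The order of the lines was not shared by the members. Spry2 averaged 46.5, 64.0, 78.04 and 66.1 CPM in lines 1 to 4, and both libraries of line 1 lay below all others, whereas those of lines 2 and 4 overlapped. Spred1 was likewise lowest in line 1, at 134 CPM with WT-USP21 and 137 CPM with ED-USP21, against at least 155 CPM in every library of the other lines. Spry1 and Etv4 were the reverse. Spry1 averaged 73.2, 54.7, 63.5 and 58.0 CPM in lines 1 to 4, with both libraries of line 1 above all others. Etv4 averaged 89.3 CPM in line 1 and 64.7, 66.6 and 65.1 CPM in lines 2, 3 and 4, with both libraries of line 1 above all others and the other lines overlapping. Dusp6 averaged 462, 453, 683 and 494 CPM in lines 1 to 4, and line 3 was the line set apart. Dusp5 was lowest in line 1, at 179 CPM with WT-USP21 and 115 CPM with ED-USP21, against at least 181 CPM in the other lines. Dusp4, Spry4, Spred2 and Etv5 did not separate any line from the rest.

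Over the 8 libraries 35 of the 45 pairs of members were positively correlated, and 6 had a Pearson r above 0.7. The closest pair was Spry2 with Spred1 (r = 0.93), followed by Dusp5 with Spry2 (0.81), Dusp6 with Spry2 (0.78) and Spry4 with Etv5 (0.77). Spry1 went with Etv4 (0.71) and Etv5 (0.70), but against Spred1 (-0.53), Dusp5 (-0.37) and Spry2 (-0.36). Dusp5 and Etv4 were the most opposed pair (-0.68). The 2 libraries of a line are not independent, so these are descriptions without a p-value. The same counts over pairs of all genes tested are not given here. Since the line held a median of 72.3% of the variance over all genes, these counts cannot tell the members from other genes.

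**Figure D5:**
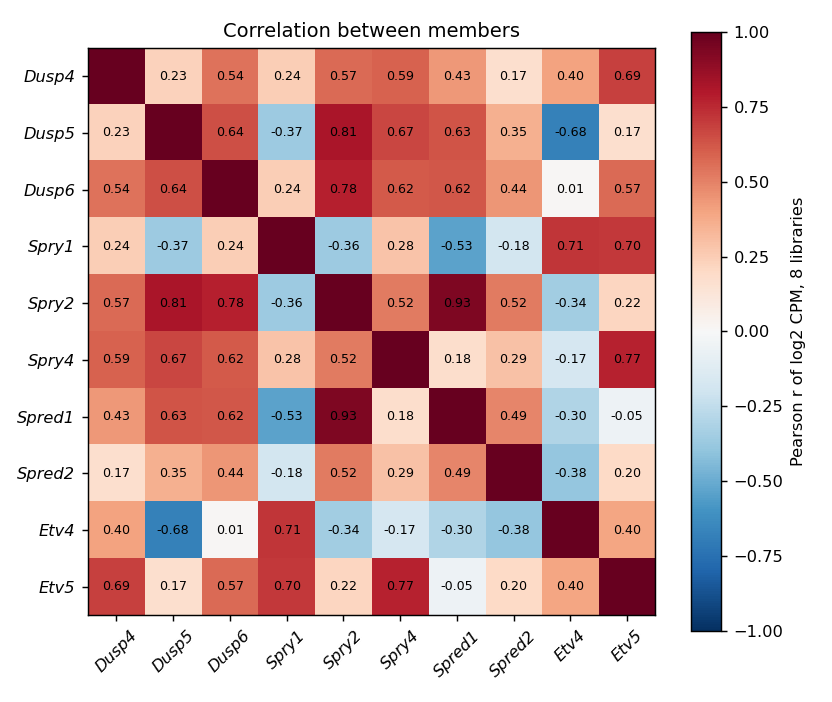
Pearson r of log2 CPM over 8 libraries for each pair of members, on a colour scale that runs over the full range of r. Spry2 with Spred1 (0.93) and Dusp5 with Etv4 (-0.68) are the extremes.

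Among 12310 tested genes with a mean of at least 1 CPM, the 5 nearest to Dusp4 over the 8 libraries included Gfra1 (r = 0.98), a co-receptor for the growth factor GDNF, Cadm4 (0.97), a cell adhesion gene, Ogdhl (0.97) and Tcf7 (0.96), a TCF family transcription factor of the Wnt pathway. Tcf7 stood at 14.7, 23.2, 22.5 and 25.4 CPM with WT-USP21 in lines 1 to 4 and at 8.20, 8.33, 11.8 and 8.66 CPM with ED-USP21, so that, as in Dusp4, the ED-USP21 library of line 3 was the high one of its group. Those nearest to Dusp6 were Mospd2 (0.97), Picalm (0.97), Snx4 (0.96), Tmtc4 (0.95) and Kdsr (0.94), each of which was highest in line 3. The genes near Dusp4 and Dusp6 were chosen by r over the same libraries, so a shared high library comes with the choice.

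Of the core of the pathway, 18 genes of 18 listed were tested and 0 were called by edgeR or DESeq2 within lines, with a median log2 difference of 0.03. For Ksr1, a scaffold for RAF and MEK, the fitted value was 0.20 (SE 0.06, edgeR adjusted p = 0.429), and for Hras it was -0.14 (SE 0.06, adjusted p = 0.611).

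Of 15 other transcripts that respond to ERK, edgeR called 0 within lines, and DESeq2 called 0 higher and 2 lower with WT-USP21, against 2.51% of all genes in either direction. These were Epha4, an ephrin receptor gene, at 104 ± 25.4 CPM with WT-USP21 and 130 ± 23.1 CPM with ED-USP21 (SD, n = 4 each, log2 -0.34, DESeq2 adjusted p = 0.00894), and Emp1, a membrane protein gene, at 928 ± 343 and 1134 ± 314 CPM (log2 -0.31, DESeq2 adjusted p = 0.0343). Both were lower in 4 of 4 lines, the other direction from Dusp4. The share of all genes lower in 4 of 4 lines is not given here, nor for Dusp10 and Fgfr4 below. For the AP-1 subunit gene Junb the log2 difference came to 0.28 (SE 0.08, edgeR adjusted p = 0.408). The median of the list was 0.02.

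The 7 other MAP kinase phosphatases gave 0 calls in edgeR and DESeq2. Dusp10, which acts on JNK and p38, stood at 45.6 ± 4.38 CPM with WT-USP21 and 52.6 ± 4.46 CPM with ED-USP21 (SD, n = 4 each, log2 -0.21, SE 0.06, edgeR adjusted p = 0.433) and was the lower one with WT-USP21 in 4 of 4 lines. Dusp1 had a log2 difference of -0.39 (SE 0.16), and Dusp2 stayed at or below 0.337 CPM. Spred3 stood at 29.1 ± 9.88 CPM with WT-USP21 and 23.2 ± 5.47 CPM with ED-USP21 (SD, n = 4 each, edgeR adjusted p = 0.563), and Spry3 at 0.522 ± 0.734 and 0.219 ± 0.135 CPM. Of 9 other ETS factor genes 0 were called. For Elk1, a partner of serum response factor, the log2 difference came to 0.25 (SE 0.08, edgeR adjusted p = 0.456), and Etv1, the remaining PEA3 gene, averaged 0.893 ± 0.615 CPM with WT-USP21 and 1.07 ± 0.484 CPM with ED-USP21. Etv6 had a log2 difference of 0.08 (SE 0.07).

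Of 8 listed genes for FGF receptors, adaptors and related proteins, not all of them inputs to the cascade, 7 were tested, and edgeR called 0. The median log2 difference was 0.63, the value of Fgfrl1, and 5 of the 7 were positive. They include Fgfr1, which stayed at or below 0.325 CPM. DESeq2 called 3 higher and 0 lower within lines, against 1.95% of all genes called higher. The 3 were on the WT-USP21 side in 4 of 4 lines, against 9.02% of all genes tested. Since they were picked by a comparison within the same lines, that is no separate result. Fgfr4, named after its values were seen, was the lower one with WT-USP21 in 4 of 4 lines, at 0.623 ± 0.376 CPM with WT-USP21 and 1.28 ± 0.792 CPM with ED-USP21 (SD, n = 4 each, log2 -1.06, SE 0.26), and did not pass (DESeq2 adjusted p = 0.0623, edgeR adjusted p = 0.326). Il17rd, which encodes the feedback inhibitor Sef, stood at 8.04, 5.88, 6.08 and 6.11 CPM with WT-USP21 in lines 1 to 4, against 4.54, 4.28, 3.49 and 1.84 CPM with ED-USP21 (log2 0.94, SE 0.22, DESeq2 adjusted p = 0.00595, edgeR adjusted p = 0.308). All its WT-USP21 libraries lay above all its ED-USP21 libraries, as was so for 1.07% of all genes tested. Fgfrl1, a receptor-like protein without a kinase domain, stood at 17.6 ± 4.63 CPM with WT-USP21 and 11.6 ± 4.06 CPM with ED-USP21 (SD, n = 4 each, log2 0.63, DESeq2 adjusted p = 0.00306). Fgfr3, a tyrosine kinase receptor gene, stood at 2.87 ± 1.48 and 1.27 ± 0.405 CPM (log2 1.08, DESeq2 adjusted p = 0.00264).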

How the data were processed

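The deposited values are raw read counts per gene, whole numbers from total RNA of the 8 libraries. Build mm9 and the tools HTSeq, STAR, CASAVA, Cufflinks and TopHat are named per the submitters' processing notes, without role, version or strand setting. The 3 rows that name no gene stayed out of library sizes and tests; reads in no gene made up 11.4% to 20.6% of counts. With the strand setting unknown, reads of a gene and of an overlapping or antisense neighbour may be mixed. In R 4.3.3, edgeR 4.0.16 turned these counts into CPM and log2 CPM (prior count 2) with TMM scaling and, after its default filter, gave log2 differences and quasi-likelihood p-values. DESeq2 1.42.0 was an alternative. Each SE is the absolute log2 difference over the square root of F, and intervals are 95%. The tests were also run on simulated data, with an outcome that is not given here. For the tests without the block and between lines, the simulated lines shared a common mean apart from planted changes. The spread between lines was thus absent there, and nothing is concluded from that check. With 4 lines a group, p-values without the block rest on the spread between lines. Those with the line as a block rest on the spread of the construct difference between lines. Each line number pairs its libraries because both come from 1 cell line; deviations from group means correlated at 0.770, 0.503, 0.468 and 0.347 within lines 1 to 4, though the WT-USP21 library of line 4 correlated more with the ED-USP21 library of line 2 (0.364), and the ED-USP21 library of line 4 more with the WT-USP21 library of line 2 (0.430). The members and gene lists were chosen with earlier results of these data known. All members are named, plus up to 3 genes of each other list with the smallest p within lines and the 5 nearest in pattern to Dusp4 and to Dusp6; a pair of genes under this rule is not reported here. Alternatives were the block, scaling, filter, tool, robust fit, prior count and lines left out. Promoter sequences are from RefSeq. Marker Adgre1 was not found by symbol.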

Additional observations from a re-analysis of the deposited data

Results flagged for a closer look

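Among 20 groups of 4 libraries (10 members in 2 constructs), 3 held a library set well apart. By chance about 1 in 20 groups would, so about 1 here. Dusp4 in the ED-USP21 library of line 3 was far above the other ED-USP21 libraries, with a gap of 0.913 of the group's range. Dusp6 in the ED-USP21 library of line 3 was far above as well, with a gap of 0.874 of the range. Spred1 in the WT-USP21 library of line 1 was far below the other WT-USP21 libraries, with a gap of 0.875 of the range. The construct difference in line 1 minus that in lines 2 to 4 differed from 0 in edgeR for Dusp5 (log2 0.845) and for Spry4 (log2 0.784), in a test chosen after the values were seen.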

How the results depend on the processing

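The log2 difference of Dusp4 kept its sign and was not called by edgeR with or without the block, except without line 1. The number of genes called without the line in the model was 0; it was 4 with the replicate block, 60 in DESeq2, 0 to 11 with 1 library left out (11 without the WT-USP21 library of line 1) and 383 without both libraries of line 1, a choice made with earlier results known. Within lines it was 4; it was 0 with no replicate block, 58 with no filter on low counts, 0 with a mean of at least 5 CPM, 407 in DESeq2, 1 with the robust fit and 0 to 746 with a line left out (746 without line 1). The block changed no call of a member. Between lines it was 4019, with 6534 in DESeq2 and 65 (without line 1) to 3261 with a line left out. For the background label it was 0, with 7 in DESeq2. Signs turned only for differences that were not called. Dusp5 within lines was -0.00053, and 0.0017 with RLE size factors, 0.0026 with no filter, 0.0047 with at least 5 CPM, 0.0018 in DESeq2 and -0.21 to 0.15 with a line left out. Spred2 within lines was -0.052 to 0.21 with a line left out. Without the block and with 1 library left out, Spry1 was -0.00054 to 0.17, Spred2 -0.071 to 0.23 and Dusp5 -0.23 to 0.12. By background label with a line left out, Dusp4 was -0.16 to 0.42, Spry2 -0.0040 to 0.42, Spred1 -0.18 to 0.060, Spred2 -0.62 to 0.091 and Etv4 -0.66 to 0.22. Between lines, Spry1 was not called with no filter (adjusted p = 0.0582) or with at least 5 CPM (adjusted p = 0.0612), whereas Dusp6 was called with no filter (adjusted p = 0.0493) and Spred1 with at least 5 CPM (adjusted p = 0.0313). The cause of these moves was not tested.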

Other observations

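Fos, the AP-1 subunit gene that ERK induces within minutes of stimulation, is named here after its values were seen. It stood at 58.4, 8.77, 33.6 and 7.15 CPM with WT-USP21 in lines 1 to 4, and at 21.0, 15.7, 55.2 and 18.9 CPM with ED-USP21. The WT-USP21 library was the higher one in line 1 and the lower one in lines 2, 3 and 4. The fitted log2 difference was -0.40 over 4 lines (edgeR adjusted p = 0.889) and -0.97 without line 1 (adjusted p = 0.0182), opposite in sign to that of Dusp4.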
